A study of Mus musculus with 10 samples.

Results

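The genes of LIF, gp130 and STAT3 signalling, with the MSX factors of uterine receptivity, were examined in whole uteri at gestation day (GD) 3.5, shortly before embryo attachment in mice. The 10 genes are named one by one, with no threshold on their values, and comprise the cytokines *Lif*, *Il6* and *Il11*, the receptor genes *Lifr*, *Il11ra1* and *Il6st*, the signal transducer *Stat3*, its inhibitor *Socs3*, and the homeobox genes *Msx1* and *Msx2*. They are 10 of the 45706 genes in the count table, and all 10 were among the 25146 genes tested. The uteri came from intact, mature adult females mated with wild-type males, and each of the 10 libraries came from its own uterus. There were 5 control *Arid1a* f/f mice, which carry the floxed alleles without Cre, and 5 *Ltf* iCre/+ *Arid1a* f/f mice, called mutant below, in which Cre made from the lactoferrin locus removes *Arid1a* in adult endometrial epithelium. All animals were homozygous for the floxed *Arid1a* allele on a mixed strain background (C57BL/6, 129S6/SvEvTac, 129P2/OlaHsd and 129S1/SvImJ). The Cre driver is not strictly epithelial, as its activity in myeloid cells, including neutrophils, is known.

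LIF is a cytokine that uterine glands secrete in response to the estrogen rise before implantation, and mice without it fail to implant their embryos. It binds the LIF receptor (*Lifr*), which pairs with gp130, the product of *Il6st*, and the JAK kinases bound to this receptor phosphorylate STAT3, which then enters the nucleus and activates genes such as *Socs3*, whose product shuts the signal down. IL-6 and IL-11 signal through gp130 as well, each by way of its own binding receptor, and the IL-11 receptor is needed for the stroma to form a decidua. MSX1 and MSX2 are homeobox transcription factors of the uterine epithelium that keep the uterus receptive, and MSX1 falls when the embryo attaches.

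Bases upstream of the start site are shown for *Socs3*, because its promoter carries a STAT motif, and for *Il6st* and *Msx2*, the 2 genes that differed between genotypes. The letters are from RefSeq (GRCm38.p6), 250 bases ending just before the annotated start and read 5′ to 3′ along the gene, with the motif TTCNNNGAA in capitals. The *Socs3* stretch lies on the minus strand at chr11:117969367-117969616, the *Il6st* stretch on the plus strand at chr13:112463820-112464069, and the *Msx2* stretch on the minus strand at chr13:53472781-53473030.
*Socs3*: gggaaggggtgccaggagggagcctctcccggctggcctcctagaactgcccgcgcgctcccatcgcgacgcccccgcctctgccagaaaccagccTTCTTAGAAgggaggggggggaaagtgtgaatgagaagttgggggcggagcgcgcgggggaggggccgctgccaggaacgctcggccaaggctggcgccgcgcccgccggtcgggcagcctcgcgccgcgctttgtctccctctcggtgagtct
*Il6st*: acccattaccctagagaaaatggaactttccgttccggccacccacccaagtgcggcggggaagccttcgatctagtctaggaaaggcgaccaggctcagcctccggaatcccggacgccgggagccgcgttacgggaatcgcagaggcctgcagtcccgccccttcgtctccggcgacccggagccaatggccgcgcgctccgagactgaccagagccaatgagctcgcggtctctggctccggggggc
*Msx2*: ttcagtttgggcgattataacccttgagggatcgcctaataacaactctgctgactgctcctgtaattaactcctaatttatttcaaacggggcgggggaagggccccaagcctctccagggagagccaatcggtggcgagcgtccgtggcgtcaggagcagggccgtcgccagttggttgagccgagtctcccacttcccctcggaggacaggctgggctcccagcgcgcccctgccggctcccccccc
The motif, which reads the same way on both strands, was searched in windows of 250 bases before and 50 bases after each start. It occurred in 1 of the 10 members, where TTCTTAGAA begins 154 bases before the RefSeq start of *Socs3*. The gene spans given below are from GENCODE, whose starts lie further upstream for *Socs3* (117970047) and *Msx2* (53473074). The *Socs3* and *Msx2* stretches, and the *Socs3* motif, therefore lie inside those spans. Windows were found for 16 of 20 STAT3 target genes, and 2 of these 16 (*Bcl6* and *Icam1*) held it, beside 9.55% of all 27025 genes with a window. The *Socs3*, *Il6st* and *Msx2* stretches had a GC content of 71.6%, 66.0% and 61.6%, against a median of 52.4% over all windows.

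The gene counts of a uterus summed to 65351817 to 72702411 in the control group and to 59296537 to 67990486 in the mutant group. Expression is given in CPM, a gene's counts divided by its TMM-scaled library size and brought to a common total, and at this depth 3 counts corresponded to at most 0.0507 CPM in any library. *Arid1a* itself had 192 to 251 CPM in controls and 165 to 208 CPM in mutant uteri, a log2 fold change of -0.20 (adjusted p = 0.201, edgeR quasi-likelihood with Benjamini-Hochberg adjustment over all genes), with 4 of 5 below every control. For *Arid1a* the label check thus showed a small difference in whole-uterus RNA that did not pass the test. *Ltf*, the locus that drives Cre, was read as well, but it is also among the estrogen-response genes listed below. Its level therefore cannot check the genotype label by itself. *Ltf* had 2.22 to 11.7 CPM in controls and 23.6 to 2831.3 CPM in mutant uteri, without overlap (log2 fold change 7.23, edgeR adjusted p = 0.00920). Mutant replicate 5 stood apart by its neutrophil markers (*S100a8*, *S100a9*, *Ly6g*, *Cxcr2* and *Mmp8*), whose summed level was 743 CPM there and between 1.32 and 3.83 CPM in the other 4 mutant uteri, against 1.03 to 4.52 CPM in controls. Progesterone-response genes (*Areg*, *Il13ra2*, *Cyp26a1*, *Acod1*, *Calca*, *Gata2*) had their lowest sums in mutant replicates 1 and 5. These were 171 and 212 CPM against 391 to 473 CPM in the other 3 and 433 to 570 CPM in controls. Single genes differed from the sum. *Acod1* had 75.6 CPM in mutant replicate 5 beside 34.4 and 56.0 CPM in replicates 2 and 3, and *Cyp26a1* had a positive log2 fold change (2.18, edgeR adjusted p = 0.0567). Mutant replicates 1 and 5 were left out in alternative fits. Expression values and not the labels set these 2 uteri apart, and *Areg* is also in the implantation list below. Calls in the fit without both are therefore given as a description. Markers of the labelled tissue (epithelium, stroma, myometrium) were present in every library, while those of blastocysts (*Pou5f1*, *Nanog*, *Cdx2*, *Sox2*) summed to at most 0.348 CPM, and *Cdx2* was at 0 in every mutant library. Markers of oviduct and cilia summed to 23.6 to 44.1 CPM in controls and 2.82 to 14.2 CPM in mutant uteri. Of these, *Ovgp1* (log2 fold change -2.21, edgeR adjusted p = 0.0106) and *Dnah5* (-1.91, adjusted p = 0.0278) were called lower. *Foxj1* was not called (-0.16, adjusted p = 0.753). The source of this difference was not tested.

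In the comparison of genotypes, edgeR called 2 of the 10 members at the threshold of 0.05 for the adjusted p. *Il6st* fell and *Msx2* rose, and they were also the only 2 whose ranges over the 5 uteri did not overlap between genotypes. Across all tested genes 9.70% passed the same threshold, 5.19% upward and 4.51% downward, and 10.7% had ranges without overlap (5.53% higher and 5.16% lower in mutants). All p-values measure the spread between these uteri. The members' log2 fold changes had a median of -0.01 beside 0.03 for all tested genes, with 5 members positive and 5 negative. In DESeq2, which called 16.3% of all genes, 4 members passed, with *Lifr* and *Il11* added. Without mutant replicate 5, where 9.15% of all genes passed, 4 members also passed, with *Lif* and *Socs3* added. Without replicates 1 and 5 of that genotype, *Stat3* joined these and the count was 5 (9.41% of all genes).

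**Figure D1:**
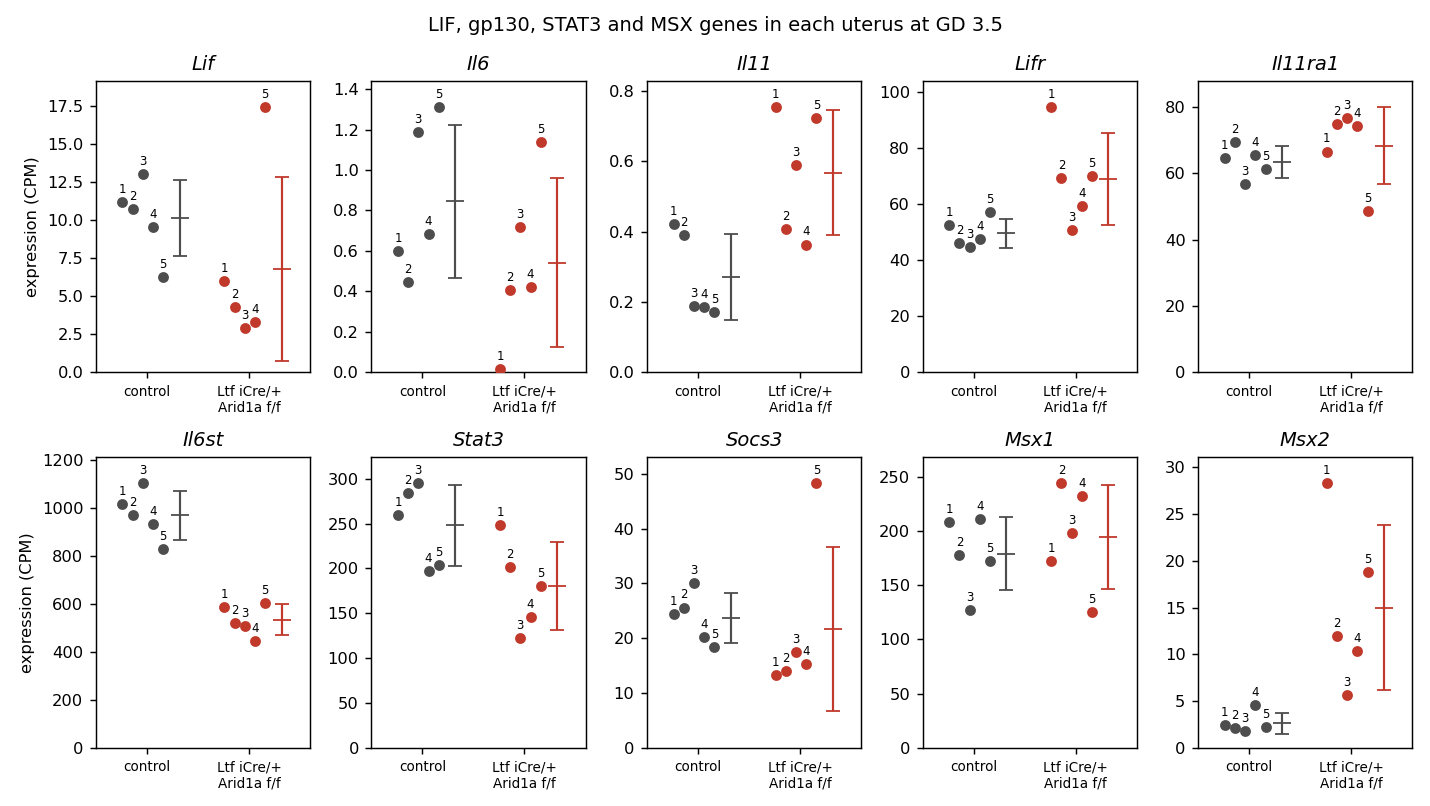
Expression of each member in CPM (vertical axis, linear, each panel with its own scale) in 5 uteri of control and 5 of Ltf iCre/+ Arid1a f/f mice, with the replicate number above each point and the mean and SD beside the points. The groups separate for *Il6st* and *Msx2*, while *Lif* and *Socs3* were lower in 4 mutant uteri and highest of all in replicate 5.

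*Lif* (ENSMUSG00000034394, chromosome 11 of GRCm38, 4257557 to 4272514, plus strand) encodes the cytokine that initiates implantation. It had 11.2, 10.7, 13.0, 9.57 and 6.23 CPM in control replicates 1 to 5, and 6.01, 4.28, 2.88, 3.31 and 17.4 CPM in mutant replicates 1 to 5. Thus 4 of the 5 mutant uteri lay below every control, and replicate 5 lay above every control. Means were 10.1 ± 2.50 CPM and 6.77 ± 6.06 CPM (SD, n = 5 each), and the difference did not exceed the variation among uteri (log2 fold change -0.58, standard error 0.45, edgeR adjusted p = 0.469, two-sided exact permutation p = 0.111). Without mutant replicate 5 the log2 fold change of *Lif* was -1.30 (standard error 0.26, edgeR adjusted p = 0.0129), and without replicates 1 and 5 it was -1.54 (adjusted p = 0.00358). It was -0.39 without mutant replicate 3 and -0.41 without replicate 4. Neutrophil markers were high in the same replicate 5 that held the *Lif* maximum. Macrophage markers (*Adgre1*, *Csf1r*, *Cd68*, *Mrc1*, *C1qa*) summed to 451 CPM there, 189 to 245 CPM in mutant replicates 1 to 4 and 111 to 229 CPM in controls. Estrogen-response genes, listed with *Msx2* below, summed to 5184.3 CPM there, 304 to 1496 CPM in mutant replicates 1 to 4 and 208 to 358 CPM in controls. The part of each of these in the *Lif* value was not tested.

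Among genes with at least 100 counts per sample on average, those whose centred log2 CPM profile over the 10 uteri differed least from that of *Lif* were *Selp* (root mean square difference 0.330), *Itga11* (0.353), *H19* (0.364), *Rapgef5* (0.382) and *Cemip* (0.385). This likeness describes 14591 genes in the same 10 libraries and carries no test. Since these 5 genes were picked for this likeness, their shared pattern follows from the selection and is no separate result. In each the lowest value lay in a mutant uterus and replicate 5 held the highest value of that genotype. *Selp*, the adhesion receptor P-selectin, for example, had 12.3 CPM there beside 2.21 to 5.46 CPM in the other 4.

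The other cytokines of the group were expressed at much lower levels. *Il6* (ENSMUSG00000025746, chromosome 5, 30013114 to 30019981, plus strand), a proinflammatory cytokine, had 0.601, 0.446, 1.19, 0.682 and 1.31 CPM in controls and 0.0157, 0.406, 0.719, 0.421 and 1.14 CPM in mutant replicates 1 to 5. The groups overlapped, and mutant replicate 1 had 1 count of it. The log2 fold change of *Il6* was -0.64 (standard error 0.65, edgeR adjusted p = 0.592), and it was -0.33 without that library. *Il11* (ENSMUSG00000004371, chromosome 7, 4772373 to 4782859, minus strand), the cytokine of decidualization, had 0.420, 0.390, 0.188, 0.185 and 0.172 CPM in controls and 0.753, 0.406, 0.589, 0.363 and 0.723 CPM in mutant uteri. Of the mutant uteri, 3 lay above every control and the other 2 lay within the control range. The adjusted p of its log2 fold change, 1.06 with a standard error of 0.36, was 0.0883 in edgeR and 0.0345 in DESeq2. These values rest on 12 to 30 counts per library in controls and 24 to 50 in mutant mice.

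*Il6st* (ENSMUSG00000021756, chromosome 13, 112464070 to 112510086, plus strand) encodes gp130, the signalling chain that LIF, IL-6 and IL-11 receptors share. Its values were 1015.6, 967, 1101.5, 932 and 826 CPM in controls and 587, 519, 508, 445 and 604 CPM in mutant replicates 1 to 5. The highest mutant uterus was well below the lowest control, and the values varied little within each genotype. *Il6st* fell from 968 ± 102 to 533 ± 64.5 CPM (SD, n = 5 each), which is 1.82-fold lower (log2 fold change -0.86, standard error 0.11, edgeR adjusted p = 0.00185). Leaving out single uteri gave log2 fold changes of -0.92 to -0.80, called in all 10 fits, and leaving out mutant replicates 1 and 5 together gave -0.98 (adjusted p = 0.000710). Endothelial markers moved in the same direction, with all 4 (*Pecam1*, *Cdh5*, *Kdr*, *Tek*) called lower and summed levels of 275 to 410 CPM against 595 to 851 CPM in controls. Of 5 stromal markers, *Dcn* was called lower (log2 fold change -0.65, edgeR adjusted p = 0.0109). *Pdgfra* was not called (-0.70, adjusted p = 0.0735), and *Col1a1* was positive (0.33, adjusted p = 0.483). The 5 myometrial markers had a median log2 fold change of -0.50, with 0 called. The part of these markers in the *Il6st* result was not tested. In RNA of whole uteri, fewer cells of a type and less RNA per cell cannot be told apart.

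The receptor chains that bind the ligands were not called. *Lifr* (ENSMUSG00000054263, chromosome 15, 7090614 to 7197489, plus strand), which confers LIF binding, had 52.5, 45.9, 44.7, 47.5 and 57.1 CPM in controls and 94.4, 69.3, 50.8, 59.3 and 70.0 CPM in mutant uteri. All but replicate 3 of the mutant uteri lay above every control. The adjusted p of the log2 fold change, 0.47 with a standard error of 0.15, was 0.0662 in edgeR, 0.0354 in DESeq2 and 0.0279 in edgeR without mutant replicate 3. Without mutant replicates 1 and 5 the log2 fold change of *Lifr* was 0.27 (adjusted p = 0.170). The *Il6st* level per *Lifr* level, each per kb of exon, was 18.8, 20.5, 23.9, 19.1 and 14.0 in controls and 6.04, 7.27, 9.72, 7.28 and 8.39 in mutant uteri. This ratio was formed after the values were seen and is given as a description. Both groups kept an excess of *Il6st* over *Lifr*, and every mutant uterus had the smaller excess.

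*Il11ra1* (ENSMUSG00000073889, chromosome 4, 41699989 to 41769474, plus strand), the IL-11 receptor, had 56.8 to 69.4 CPM in controls (median 64.7) and 48.7 to 76.8 CPM in mutant uteri (median 74.3). Its log2 fold change was 0.10 (standard error 0.12, edgeR adjusted p = 0.640) with 3 mutant uteri above and 1 below all controls. The value is uncertain, because its annotated span overlaps 6 other genes and because a near-identical copy, *Il11ra2*, had 0 counts in every library, so reads that match both copies may be missing from either count.

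*Stat3* (ENSMUSG00000004040, chromosome 11, 100885098 to 100939540, minus strand) encodes the transcription factor that carries the LIF signal to the nucleus. It had 260, 284, 295, 197 and 204 CPM in controls and 248, 202, 122, 146 and 180 CPM in mutant uteri. Replicates 3, 4 and 5 of mutant mice lay below every control, and replicates 1 and 2 within the control range. The means were 248 ± 45.3 and 180 ± 48.9 CPM (SD, n = 5 each), and the difference missed the threshold (log2 fold change -0.47, standard error 0.19, edgeR adjusted p = 0.142). It was -0.66 without mutant replicates 1 and 5 (adjusted p = 0.0467). The end of *Stat3* overlaps that of *Stat5a* on the opposite strand, and whether the counting used strand is not given in the sources used here.

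*Socs3* (ENSMUSG00000053113, chromosome 11, 117966079 to 117970047, minus strand), the STAT3-induced feedback inhibitor whose motif is shown above, had 24.4, 25.6, 30.1, 20.2 and 18.4 CPM in controls. In mutant replicates 1 to 5 it had 13.3, 14.0, 17.5, 15.3 and 48.3 CPM. As for *Lif*, the first 4 of these lay below every control and replicate 5 above every control. With all 10 uteri the log2 fold change of *Socs3* was -0.13 (standard error 0.34, edgeR adjusted p = 0.854). Without mutant replicate 5 it was -0.66 (standard error 0.15, adjusted p = 0.0237), and without replicates 1 and 5 it was -0.61 (adjusted p = 0.0397). It was -0.00 without mutant replicate 1 and -0.01 without replicate 2. Replicate 5 had the highest sums of neutrophil markers (743 CPM), macrophage markers (451 CPM) and estrogen-response genes (5184.3 CPM). The part of each of these in its *Socs3* value was not tested.

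**Figure D2:**
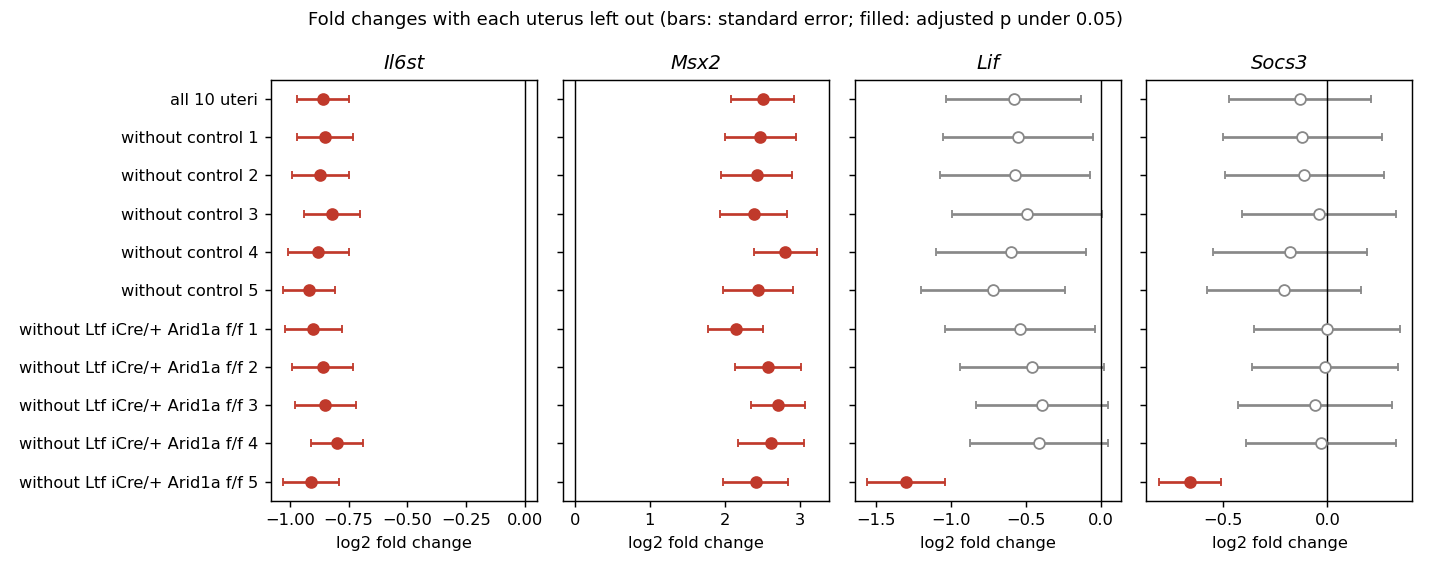
Log2 fold change (horizontal axes, Ltf iCre/+ Arid1a f/f over control) of *Il6st*, *Msx2*, *Lif* and *Socs3* from edgeR fits with all 10 uteri and with each uterus left out, bars giving the standard error and filled points an adjusted p under 0.05. *Il6st* and *Msx2* passed in every fit, whereas *Lif* and *Socs3* passed without Ltf iCre/+ Arid1a f/f replicate 5, at -1.30 and -0.66, and in none of the other 10 fits shown.

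*Msx1* (ENSMUSG00000048450, chromosome 5, 37820485 to 37824583, minus strand) was the more abundant of the homeobox genes, with 127 to 211 CPM in controls (median 178) and 125 to 244 CPM in mutant uteri (median 198). The ranges overlapped broadly, and the log2 fold change was 0.11 (standard error 0.19, edgeR adjusted p = 0.760). *Msx2* (ENSMUSG00000021469, chromosome 13, 53466884 to 53473074, minus strand) had 2.46, 2.12, 1.80, 4.60 and 2.23 CPM in controls and 28.3, 12.0, 5.61, 10.3 and 18.8 CPM in mutant replicates 1 to 5. Every mutant uterus exceeded every control, and replicates 1 and 5 were the highest. The mean of *Msx2* rose 5.68-fold, 2.64 ± 1.12 CPM in controls and 15.0 ± 8.79 CPM in mutants (SD, n = 5 each, log2 fold change 2.50, standard error 0.42, edgeR adjusted p = 0.00523). Its log2 fold change was 2.14 to 2.80 in the 10 fits that leave out 1 uterus, all of them called, and 1.82 without mutant replicates 1 and 5 (adjusted p = 0.00647). The summed epithelial markers were also higher in mutant uteri, at 1094.1 to 2030.2 CPM against 762 to 1026.1 CPM, with 5 of 7 called upward (*Epcam*, *Cdh1*, *Krt8*, *Krt19*, *Cldn7*). *Krt18* (log2 fold change 0.27, edgeR adjusted p = 0.316) and *Cldn3* (-0.30, adjusted p = 0.558) were not called. *Cldn3* had 78.7 and 59.2 CPM in mutant replicates 1 and 5, below the 121 to 186 CPM of controls. The part of the epithelial markers in the *Msx2* result was not tested. Estrogen-response genes (*Ltf*, *C3*, *Muc1*, *Greb1*, *Clca3a2*) summed to 1496 and 5184.3 CPM in mutant replicates 1 and 5, where *Msx2* was highest. The sums were 373, 304 and 697 CPM in mutant replicates 2 to 4 and 208 to 358 CPM in controls. Most of the sum in replicate 5 came from *Ltf* (2831.3 CPM), the locus that drives Cre, and *C3* (1977 CPM). This uterus also had the high neutrophil marker sum (743 CPM), and Cre made from the *Ltf* locus is known to be active in neutrophils. The part of neutrophils in this *Ltf* value was not tested. The part of the estrogen-response genes in the *Msx2* result was likewise not tested. Per kb of exon, *Msx1* exceeded *Msx2* between 48.6 and 89.3 times in controls and between 6.43 and 37.4 times in mutant uteri.

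**Figure D3:**
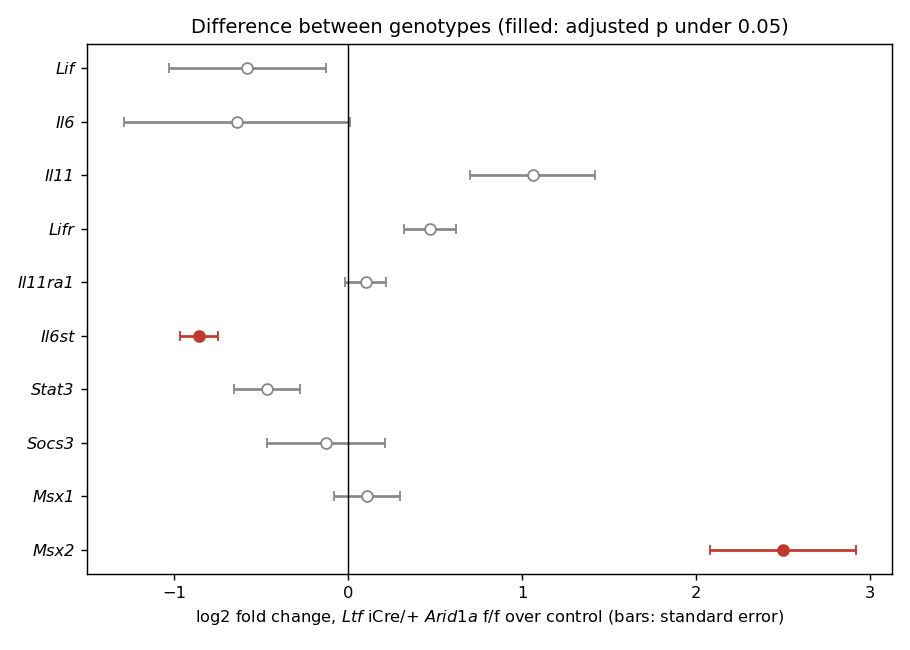
Log2 fold change (horizontal axis, Ltf iCre/+ Arid1a f/f over control, 5 uteri each) of the 10 members with its standard error, filled points marking an adjusted p under 0.05 in edgeR. Only *Il6st* at -0.86 and *Msx2* at 2.50 are filled.

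Levels can be compared between genes after division by exon length. In controls the order of mean level in CPM per kb of exon was *Il6st* (87.3 ± 9.19), *Msx1* (58.0 ± 10.9), *Stat3* (26.0 ± 4.75), *Il11ra1* (14.2 ± 1.07), *Socs3* (8.21 ± 1.61), *Lifr* (4.60 ± 0.479), *Lif* (2.33 ± 0.575), *Msx2* (0.806 ± 0.342), *Il6* (0.348 ± 0.157) and *Il11* (0.130 ± 0.0591), each as mean ± SD of 5 uteri. The ranges of neighbours in this order did not overlap except those of *Il6* and *Il11*. In mutant uteri *Msx1* (62.6 ± 15.5) stood above *Il6st* (48.0 ± 5.81), with overlapping ranges, and *Msx2* (4.58 ± 2.68) stood above *Lif* (1.56 ± 1.39), again with overlap. Neighbours overlapped at 7 of the 9 steps there, the exceptions being *Il6st* above *Stat3* and *Lif* above *Il11*.

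**Figure D4:**
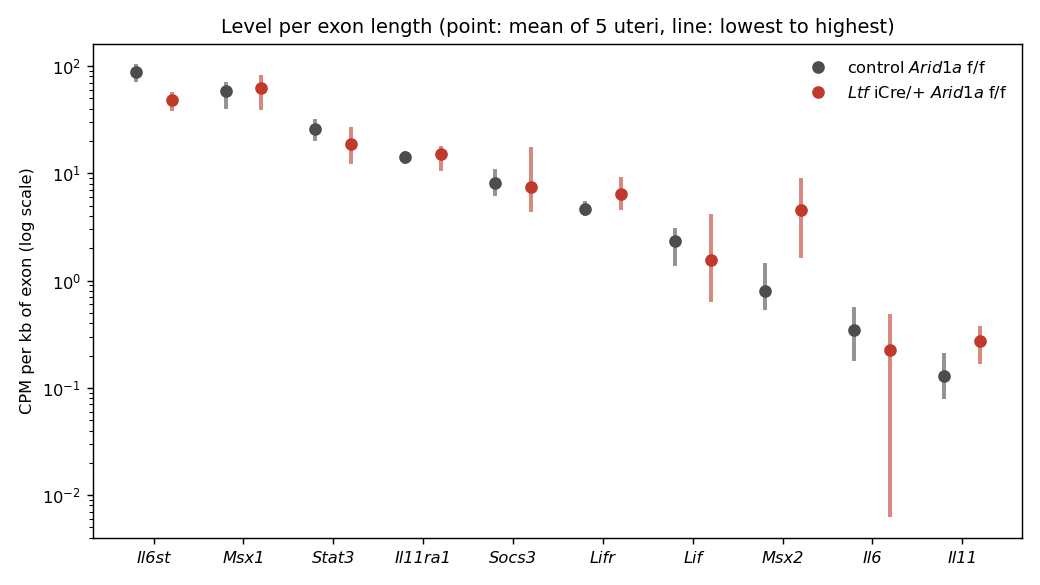
Mean level of each member in CPM per kb of exon (vertical axis, log scale) for control uteri and for those of Ltf iCre/+ Arid1a f/f mice, with lines from the lowest to the highest of 5 uteri. *Il6st* leads in controls at 87.3 and *Msx2* moves from 0.806 to 4.58, while *Il6* and *Il11* lie below 1 in both genotypes.

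Of 14 further cytokine and receptor genes of the gp130 family, 12 were tested, while *Il31* and *Il11ra2* had 0 counts throughout. Of the 12 tested, 1 was called, upward, which is 8.33% beside 9.70% of all tested genes. That gene was *Clcf1*, a ligand of the ciliary neurotrophic factor receptor, with 12.5 to 16.5 CPM in controls and 17.5 to 34.4 CPM in mutant uteri (log2 fold change 0.87, standard error 0.17, edgeR adjusted p = 0.0110). *Osm*, the oncostatin M cytokine of myeloid cells, had 0.426 to 0.711 CPM in controls, 0.392 to 0.842 CPM in mutant replicates 1 to 4 and 7.16 CPM in replicate 5 (log2 fold change 1.86, adjusted p = 0.151, and 0.19 without that uterus). The receptor *Il31ra* (-0.68, adjusted p = 0.172) and the cytokine subunit *Il27* (1.26, adjusted p = 0.179) did not pass. The median log2 fold change of the tested family was 0.56.

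Among 25 genes of the JAK and STAT families and their feedback regulators, 3 were called and 22 were not, with a median log2 fold change of 0.04. The called share was 12.0% of the list, beside 9.70% of all tested genes. *Jak1* and *Jak2*, kinases that act at gp130, both fell, *Jak1* from 351 to 440 CPM in controls to 256 to 333 CPM (log2 fold change -0.43, edgeR adjusted p = 0.0206) and *Jak2* from 322 to 401 CPM to 239 to 294 CPM (-0.45, adjusted p = 0.0170). The *Jak1* call was lost without control replicate 3 (adjusted p = 0.0540) and without mutant replicates 1 and 5 (adjusted p = 0.0533). *Cish*, a feedback inhibitor best known as a STAT5 target, rose from 13.6 to 16.5 CPM in controls to 19.6 to 37.5 CPM (log2 fold change 0.86, adjusted p = 0.00879).

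Of 20 STAT3 target genes, 2 were called upward and 1 downward, with a median log2 fold change of 0.08. *Hp*, the acute phase protein haptoglobin, had 2.87 to 4.52 CPM in controls and 6.44, 18.4, 20.6, 17.4 and 33.8 CPM in mutant replicates 1 to 5 (log2 fold change 2.34, standard error 0.35, edgeR adjusted p = 0.00293). *Saa3*, a serum amyloid A protein, had 0.170 to 0.689 CPM in controls and 1.33, 1.96, 2.73, 3.99 and 57.2 CPM (log2 fold change 4.90, adjusted p = 0.0222), and 2.47 without replicate 5 (adjusted p = 0.00857). Its adjusted p lay between 0.0515 and 0.0606 without control replicates 1, 2, 3 or 4 in turn. *Serpina3n*, a protease inhibitor of the acute phase, fell by 2.81 on the log2 scale (adjusted p = 0.0187), from 0.797 to 16.9 CPM in controls to 0.741 to 1.81 CPM, ranges that overlapped through control replicate 1. *Hif1a*, the hypoxia response factor, missed the threshold in the edgeR fit of all uteri (-0.39, adjusted p = 0.0530), and passed it in DESeq2 (adjusted p = 0.0136), with edgeR's own expression filter (0.0414) and without mutant replicate 2 (-0.49, adjusted p = 0.0111). The acute phase genes thus moved in both directions, and 3 of 20 passed in all, 15.0% beside 9.70% of all tested genes.

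Of 6 uterine gland genes, which mark the cells that secrete LIF, 1 was called, 16.7% beside 9.70% of all tested genes. All 6 had negative log2 fold changes, with a median of -1.93. This median leans on *Prss28* (-3.57) and *Prss29* (-3.15), named after their values were seen, which had 0.601 CPM in control replicate 1 and at most 0.0976 CPM in any other library, and over the 4 genes with a mean of at least 10 counts it was -1.19. *Foxa2*, a transcription factor required for glands to express *Lif*, fell from 13.6, 13.7, 11.2, 13.8 and 10.6 CPM in controls to 4.48, 4.55, 5.87, 8.58 and 5.15 CPM in mutant uteri. This was a log2 fold change of -1.13 (standard error 0.19, edgeR adjusted p = 0.00570), called with each uterus left out, and it included replicate 5, where *Lif* was high. *Cxcl15*, *Spink1* and *Sox9*, a chemokine, a protease inhibitor and a transcription factor expressed in glands, had log2 fold changes of -1.24 (adjusted p = 0.127), -2.62 (adjusted p = 0.126) and -1.01 (adjusted p = 0.139). For *Spink1* and *Cxcl15* the genotypes did not overlap, and *Spink1* had 0.0627 and 0.0434 CPM in mutant replicates 1 and 5, beside 4.44 to 8.67 CPM in the other 3. Without those 2 uteri, 4 of the 6 gland genes were called, beside 9.41% of all genes. Their log2 fold changes were -0.99 for *Foxa2* (adjusted p = 0.0138), -0.76 for *Cxcl15* (0.0463), -1.89 for *Spink1* (0.0298) and -1.90 for *Sox9* (0.00103). *Sox9* was also called without mutant replicate 1 alone (-1.50, adjusted p = 0.0200).

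Of 14 implantation genes around LIF, 7 were called, 5 downward and 2 upward, which is 50.0% of the list beside 9.70% of all tested genes. The list was written with earlier results of these data known, so this share can reflect the choice of genes and carries no test. The count was 5 without control replicate 1, 2, 3 or 4. *Areg*, the EGF family ligand amphiregulin and a progesterone target of the epithelium, fell from 8.50 ± 1.42 to 0.377 ± 0.263 CPM (SD, n = 5 each), 22.5-fold lower (log2 fold change -4.49, edgeR adjusted p = 0.00131). *Coch*, a secreted protein induced by LIF in the luminal epithelium, fell from 12.9 ± 5.18 to 2.17 ± 1.02 CPM (log2 fold change -2.57, adjusted p = 0.00601), and *Igfbp3*, an IGF binding protein, from 198 ± 30.6 to 80.6 ± 26.2 CPM (-1.30, adjusted p = 0.00523). *Hbegf*, an EGF family ligand made at the site of attachment, rose from 6.31 ± 1.26 to 11.5 ± 1.69 CPM (0.86, adjusted p = 0.0106). These 4 genes did not overlap between genotypes and were called with each uterus left out. The other 3 called genes, named after their values were seen, were *Ereg* (-2.72, adjusted p = 0.0291) and the hedgehog receptor *Ptch1* (-0.87, adjusted p = 0.0462), which fell, and the prostaglandin synthase *Ptgs2* (2.22, adjusted p = 0.0136), which rose. The EGF family ligands thus moved in both directions, and *Lif* was not called in the same fit.

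MSX factors have been linked to WNT signalling, since uteri without them gain *Wnt5a*. Among 10 WNT genes, 4 were called, all upward, which is 40.0% of the list beside 9.70% of all tested genes. This list was also written with earlier results of these data known, so its share can reflect the choice of genes. *Wnt7b* rose from 0.418 to 1.21 CPM in controls to 44.9, 6.22, 6.74, 12.1 and 40.9 CPM in mutant replicates 1 to 5 (log2 fold change 4.93, standard error 0.66, edgeR adjusted p = 0.00185). *Wnt7a*, a ligand of the luminal epithelium, rose from 8.01 to 14.6 CPM to 21.4 to 60.2 CPM (1.64, adjusted p = 0.00554), and the WNT receptor *Ror2* from 18.9 to 33.0 CPM to 36.8 to 80.4 CPM (1.11, adjusted p = 0.0139). *Wnt4*, which acts in decidualization, rose from 6.63 ± 2.10 to 30.7 ± 31.1 CPM (2.21, adjusted p = 0.0288), but missed the threshold without control replicates 2, 3, 4 or 5 in turn (adjusted p from 0.0625 to 0.0775). Its highest value was 84.6 CPM in mutant replicate 5, beside 9.30 to 29.7 CPM in the other 4, and its log2 fold change was 1.38 without that uterus (adjusted p = 0.0255). Replicates 1 and 5 held the highest mutant values of all 4 genes, as they did for *Msx2*. Without both, the log2 fold changes were 3.52 for *Wnt7b* (adjusted p = 0.000238), 1.14 for *Wnt7a* (0.00243), 0.71 for *Ror2* (0.0250) and 0.99 for *Wnt4* (0.0405). In that fit 6 of the 10 genes were called, 5 upward and 1 downward, beside 9.41% of all genes. The downward gene was *Lef1*, a transcription factor of the WNT pathway named after its values were seen, with 51.2 to 70.0 CPM in controls and 5.97 to 37.9 CPM in mutants. With all 10 uteri the ranges of *Lef1* did not overlap but it missed the threshold (log2 fold change -1.24, edgeR adjusted p = 0.0833). *Wnt5a* itself, added after its value was seen, had 259 to 331 CPM in controls and 265 to 365 CPM in mutant uteri (0.07, adjusted p = 0.766).

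**Figure D5:**
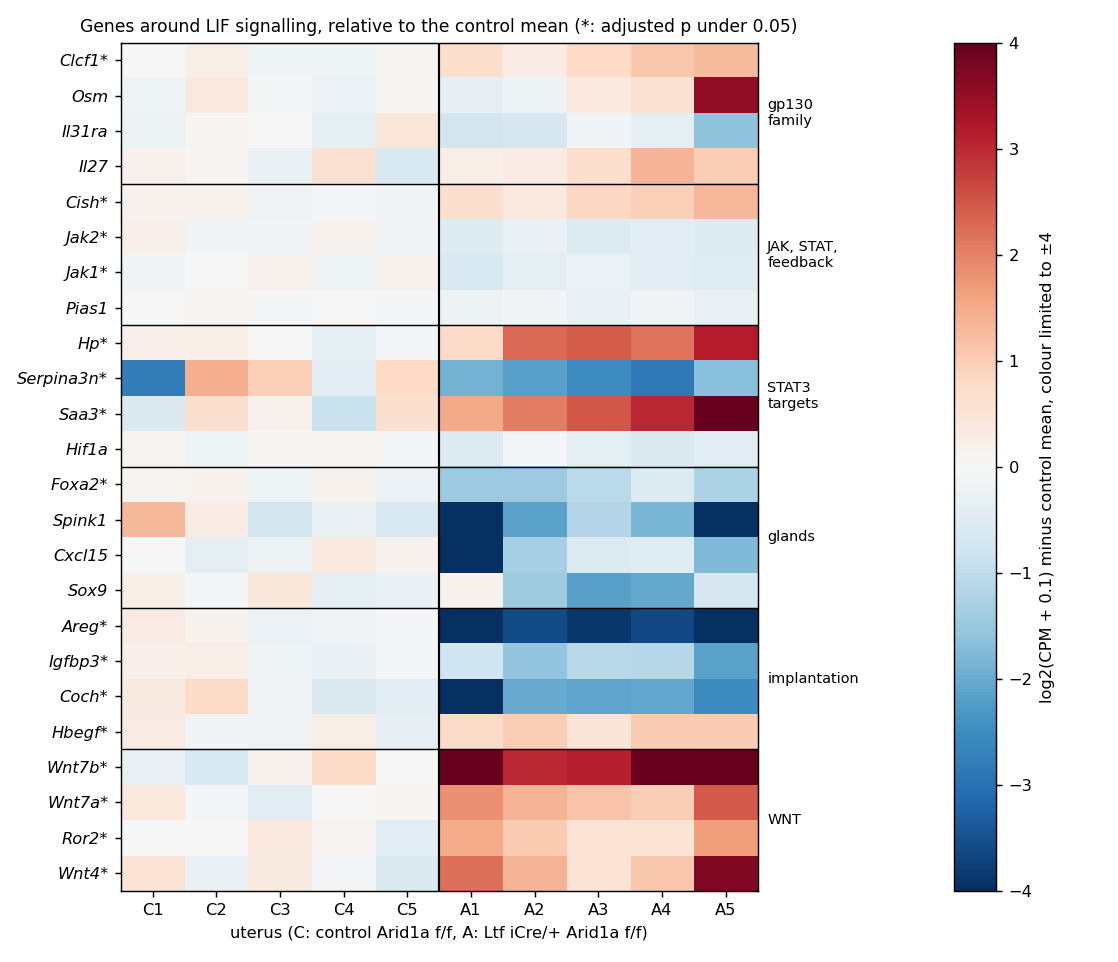
Log2(CPM + 0.1) of the 4 genes with the lowest adjusted p in each of 6 lists, relative to the control mean, in 5 control (C1 to C5) and 5 Ltf iCre/+ Arid1a f/f (A1 to A5) uteri, red for higher and blue for lower, with colours limited at ±4. Gland and implantation genes are mostly blue and WNT genes red in all 5 mutant uteri, while *Osm* is deep red in A5.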

How the data were processed

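The authors sequenced paired end mRNA libraries of 10 whole uteri at GD 3.5. The authors trimmed reads with cutadapt 1.18 and Trim Galore 0.6.4, aligned them to GRCm38 with STAR 2.7.3a and deposited raw counts per gene from its GeneCounts mode, without normalization. The annotation release and strand setting are not given in the sources used here. Of 45706 identifiers, 45143 were given symbols and positions by GENCODE M21 (GRCm38). The filter followed the study's methods and kept genes averaging 1 count or more per library. Genotypes were compared in R 4.3.3 with edgeR 4.0.16 (TMM, quasi-likelihood test, no factor but genotype, Benjamini-Hochberg adjustment over 25146 genes, threshold 0.05), which replaced the study's DESeq2 as the main test. DESeq2 1.42.0 was an alternative. Standard errors are the log2 fold change divided by the square root of the F statistic. The exact permutation test was two-sided over 252 arrangements of log2 CPM (prior count 2) and cannot go below 0.00794. Exon length was the union of annotated exons.

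The members and lists were chosen with earlier results of these data known, and the lists were written from general knowledge. Named genes were the members and, from each list, the 4 with the lowest adjusted p, with the 5 genes nearest to *Lif* in profile. The values of 1 of these genes are not reported here. The uteri were separate animals. The procedures were tested on simulated data. Alternatives covered normalization, test, filter, replicate block and omission of uteri. List medians over genes with a mean of at least 10 counts were added after the data were seen. The same holds for the directions of list genes called without mutant replicates 1 and 5. No library was a duplicate of another (lowest chi-square per gene within a genotype, 36.1).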

Additional observations from a re-analysis of the deposited data

Results flagged for a closer look

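Values that stood apart from the other 4 of their genotype, by the ratio of the gap to the range of log2 CPM (critical value 0.71 for 5 samples), were found in 4 of 68 groups of 5 uteri, and chance gives about 1 in 20. *Socs3* in mutant replicate 5 had 48.3 CPM beside 13.3 to 17.5 CPM in the others (ratio 0.787). *Osm* in the same uterus had 7.16 CPM beside 0.392 to 0.842 CPM (ratio 0.744), and *Saa3* had 57.2 CPM beside 1.33 to 3.99 CPM (ratio 0.710). *Coch* was lowest in mutant replicate 1, at 0.470 CPM beside 1.97 to 2.92 CPM (ratio 0.780).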

How the results depend on the processing

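Over 541 refits of the 34 named genes under the alternatives, 0 changed direction, 511 kept their side of the threshold, 13 lost the call and 17 gained it. The count of called genes was 2438 and the members' count 2. DESeq2 gave 4103 genes (2131 higher, 1972 lower), 4 members, 6 JAK and STAT genes and 2 gland genes. With the replicate number as a block, 1704 of 25146 genes were called, 845 higher and 859 lower, the WNT list fell from 4 to 2 calls and the implantation list from 7 to 5. The numbers do not pair the uteri by label, same-numbered uteri correlated above 0.1 in 1 of 5 pairs, and 2 of 5 controls correlated best with their own number. Without mutant replicates 1 and 5 together the counts were 5 members, 2 gp130 family genes and 4 gland genes. Omitting single uteri, the count of called genes lay between 1204 (without control replicate 2) and 2381, with 594 to 1296 higher and 610 to 1085 lower, the members between 2 and 4, and the gland genes between 1 and 2. Omitting control replicate 3 left 1248 calls, and omitting control replicate 4 left 1414. The number of uteri limits these tests, and *Il6* and *Il11* are further limited by counts.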
